A study of Mus musculus with 2 samples.

Results

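GABA-A receptors are chloride channels built from 5 subunits around a central pore, usually alpha and beta subunits together with a gamma subunit, and they are opened by the transmitter GABA. In trigeminal ganglion (TG) neurons, as in other primary sensory neurons, the chloride gradient is such that opening these channels depolarizes the cell. The alpha subunit sets much of a receptor's response to GABA and to benzodiazepines, the beta subunit takes part in GABA binding and in trafficking, and the gamma subunit completes the benzodiazepine site and helps to anchor the receptor. Described here are 7 genes of this family: the alpha subunit genes Gabra2, Gabra3 and Gabra5, the beta subunit genes Gabrb1 and Gabrb2, and the gamma subunit genes Gabrg1 and Gabrg3. They were chosen by symbol, with earlier results of these data known, and some other GABA-A subunit genes are not analysed here. All 7 were listed in both libraries among 39098 genes in all.

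The right TGs came from male C57BL/6 mice of 5 to 8 weeks. The CFA group received 20 µL of complete Freund's adjuvant diluted in saline in the right vibrissal pad, and TGs were taken 7 days later. The sample labels call the control untreated, whereas the study's methods describe saline given the same way. Each group is 1 BD Rhapsody library, and the study's methods give the size of each group of mice but not how many of them entered its library, so no test between groups was possible and all intervals below cover counting error only.

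The control library held 7298 cells with 48916096 unique molecular identifiers (UMIs, counts of distinct captured transcripts), and the CFA library held 4080 cells with 22096268 UMIs. Kept cells had at least 150 genes and no more than 25% mitochondrial counts. Neurons were taken by Tubb3 and Snap25 and sorted by raw counts of a few marker genes into 9 classes, which left 702 control and 347 CFA gated neurons at medians of 47968 and 41228 UMIs. The classes were NP1 (Mrgprd), NP2 (Mrgpra3), PEP2 (Sst or Nppb), Trpm8 and C-fibre low-threshold mechanoreceptors (cLTMR). The others were A-fibre neurons (Nefh, with Calca under 100 UMIs), Nefh-PEP (Nefh, with Calca at 100 UMIs or more) and peptidergic C-fibre neurons (PEP C). PEP C neurons were split at 3 UMIs of Sstr2 into Sstr2+ and Sstr2-. Lpar3 and P2rx3 were highest in NP1, Il31ra and Nts in PEP2, Cdh8, Foxp2 and Gpr26 in Trpm8 and Zfp521 in cLTMR, in both libraries and none of them used for gating. For the A-fibre class the markers were mixed, since Ntrk3 was highest there among neurons but Pvalb was highest in the Trpm8 class, at 214 and 192 CPM (UMIs of a gene per 1e6 UMIs of the class) against 20.2 and 3.39 CPM in A-fibre neurons. The 2 libraries shared 27 cell barcodes, 4 of them in control and 1 in CFA gated neurons.

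The 3 alpha members share a codon at a residue linked to the response to classical benzodiazepines, whose site a gamma subunit completes. In the windows below, read from the GRCm38 genome with the GENCODE M21 transcripts and written 5′ to 3′ on the coding strand, capitals mark the codon of the residue at which alpha subunits that respond to classical benzodiazepines carry histidine and those that do not carry arginine. Gabra4 and Gabra6 are shown for contrast.
Gabra2, chr5:71014487-71014525, minus strand, exon 5 of 10: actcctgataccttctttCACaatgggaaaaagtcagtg
Gabra3, chrX:72501150-72501188, minus strand, exon 5 of 10: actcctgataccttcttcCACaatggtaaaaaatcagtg
Gabra5, chr7:57488873-57488911, minus strand, exon 5 of 10: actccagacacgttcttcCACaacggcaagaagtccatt
Gabra4, chr5:71641134-71641172, minus strand, exon 4 of 9: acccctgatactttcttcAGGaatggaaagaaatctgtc
Gabra6, chr11:42317629-42317667, minus strand, exon 4 of 9: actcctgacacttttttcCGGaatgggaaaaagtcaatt
The windows of Gabra2 and Gabra3 were identical at 36 of 39 bases and those of Gabra2 and Gabra5 at 29 of 39. All 3 members hold the histidine codon CAC, Gabra4 holds AGG and Gabra6 holds CGG, both for arginine.

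The beta members differ at a residue of the pore-lining helix that governs the response to anaesthetics such as etomidate, where asparagine gives sensitivity and serine does not. Capitals again mark its codon.
Gabrb1, chr5:72121963-72122001, plus strand, exon 8 of 9: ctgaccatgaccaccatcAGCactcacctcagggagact
Gabrb2, chr11:42597555-42597593, plus strand, exon 8 of 10: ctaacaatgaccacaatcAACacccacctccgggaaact
Gabrb1 holds AGC for serine and Gabrb2 holds AAC for asparagine, and the windows were identical at 32 of 39 bases. Gabrb1, as described below, was the beta member with nearly all beta UMIs.

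Among the members, 3 lie close together on chromosome 5 (Gabrg1 at chr5:70751047-70842617, Gabra2 at chr5:70957597-71095849 and Gabrb1 at chr5:71658113-72149037), and Gabrg3 (chr7:56716465-57387188) lies beside Gabra5 (chr7:57407672-57510059). Gabrb2 is at chr11:42419757-42629028 and Gabra3 at chrX:72432681-72656848. Gabra5 and Gabrb1 each overlap 1 protein-coding gene on the other strand, and whether counting used strand is not stated in the sources used here. The promoters of the neighbours Gabra2 and Gabrg1 are shown because these genes lie next to each other in the cluster and the windows differ in their CG pairs. They are RefSeq windows on GRCm38.p6 from 250 bases before to 50 after the annotated start, on the minus strand, with CG pairs in capitals.
Gabra2, chr5:71095800-71096099: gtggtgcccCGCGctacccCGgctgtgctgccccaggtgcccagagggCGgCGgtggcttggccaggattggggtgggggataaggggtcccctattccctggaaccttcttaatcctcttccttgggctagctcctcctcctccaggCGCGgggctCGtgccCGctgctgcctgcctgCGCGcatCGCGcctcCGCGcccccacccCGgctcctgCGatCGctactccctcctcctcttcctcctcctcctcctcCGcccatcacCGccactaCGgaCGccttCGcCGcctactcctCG
Gabrg1, chr5:70842568-70842867: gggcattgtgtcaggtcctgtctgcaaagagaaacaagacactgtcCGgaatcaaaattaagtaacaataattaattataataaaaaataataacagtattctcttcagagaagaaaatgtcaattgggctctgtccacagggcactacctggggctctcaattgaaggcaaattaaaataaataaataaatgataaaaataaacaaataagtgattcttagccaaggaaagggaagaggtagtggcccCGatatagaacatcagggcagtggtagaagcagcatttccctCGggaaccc
The Gabra2 window holds 25 CG pairs and the Gabrg1 window 3, against a median of 7 over 32851 promoters of the same length. Of the motifs searched on both strands, TAATTA occurs in the Gabrg1 window and in 5.29% of all promoters, TATAAA occurs in both Gabra3 windows and 1 of 3 Gabrb2 windows and in 13.6% of all, and TGTGGT occurs in 1 of 2 Gabrb1 windows and in 16.8% of all. These are matches of letters, and no binding was measured.

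The 7 members together were found almost wholly in neurons, and their level differed widely between the neuron classes. Of their UMIs, 96.9% among control and 97.0% among CFA cells lay in neurons. Summed over the members, A-fibre neurons held 229.8 CPM (95% exact Poisson interval 203 to 259) among control and 183 CPM (150.1 to 221) among CFA cells, and cLTMR held 224 CPM (209 to 240) and 261 CPM (239 to 284). The Trpm8 class followed with 159 and 145 CPM, then Nefh-PEP, of which the CFA library had 8 neurons, with 137 and 104 CPM. Sstr2- PEP C held 124 and 97.2 CPM and Sstr2+ PEP C 81.0 and 57.3 CPM. PEP2 held 32.9 and 27.3 CPM, NP1 27.9 and 32.0 CPM and NP2 12.4 and 13.2 CPM. The summed level of these 7 genes was lowest in NP1, NP2 and PEP2. It was highest in A-fibre neurons and cLTMR among control cells, whereas among CFA cells the A-fibre interval overlapped that of the Trpm8 class (121 to 173 CPM).

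**Figure D1:**
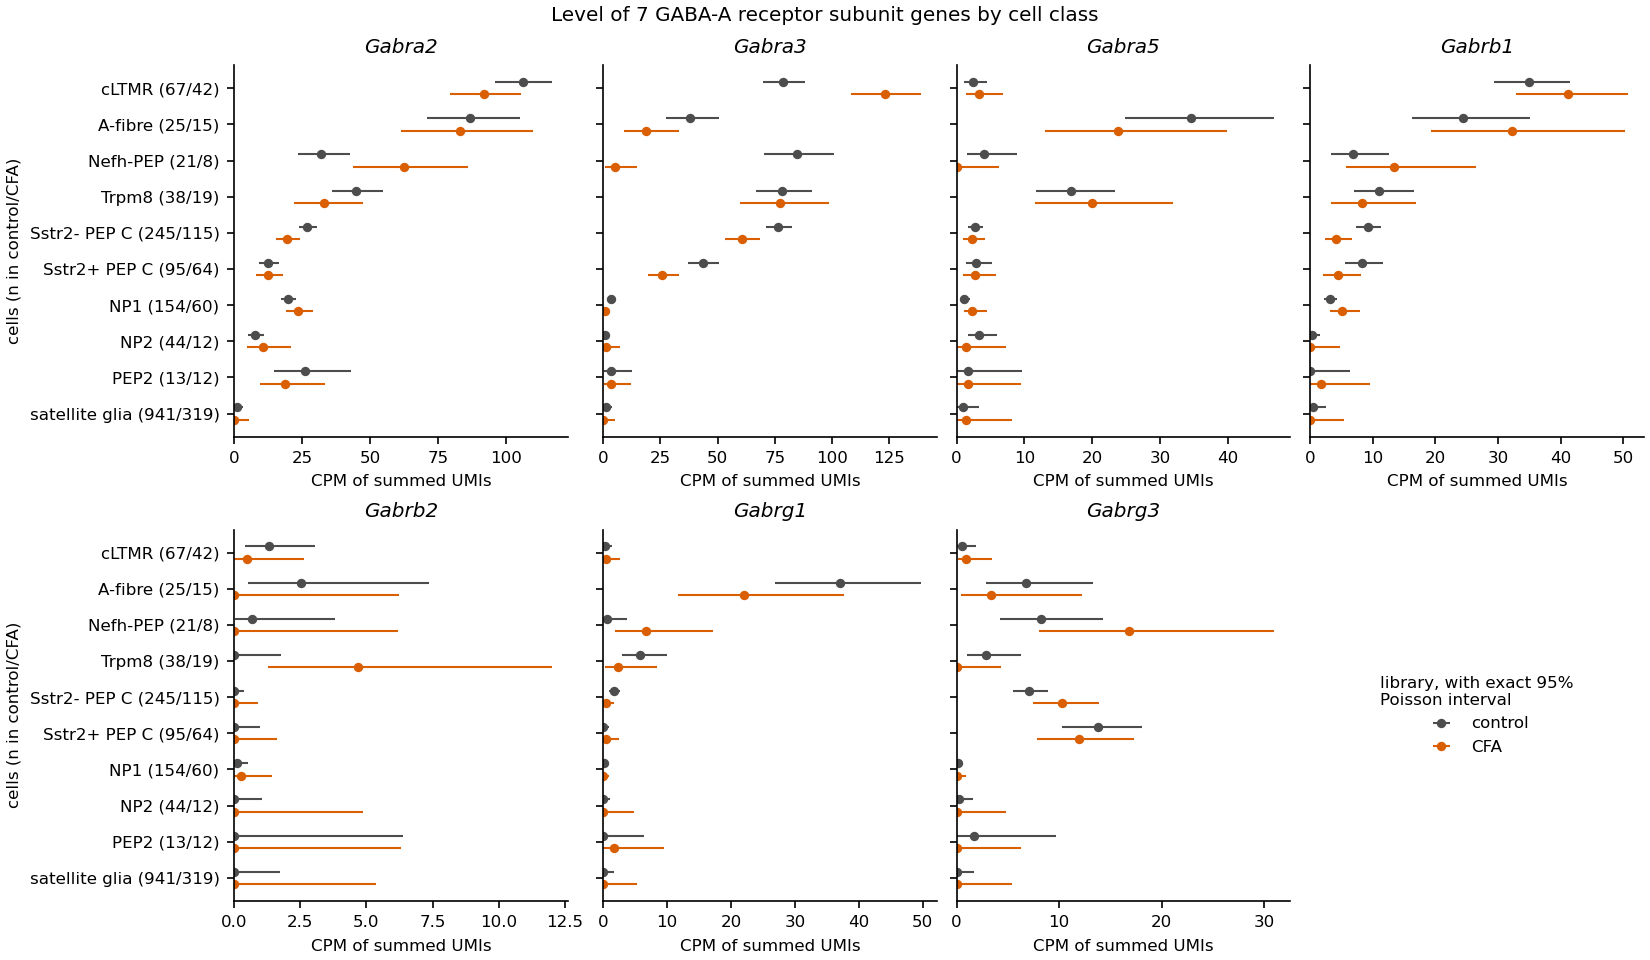
CPM of each member (x axis, a separate scale per gene) in 9 neuron classes and satellite glia (y axis, with cell numbers in control/CFA), where points are the 2 libraries and bars exact 95% Poisson intervals. Gabra2 and Gabrb1 peak in cLTMR and A-fibre neurons, Gabra5 and Gabrg1 in A-fibre neurons, and Gabrg3 in Sstr2+ PEP C among classes with at least 10 neurons in both libraries.

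Gabra2, the alpha-2 gene, was highest in cLTMR and present in every class. cLTMR held 106 CPM (95.9 to 117) among control and 91.7 CPM (79.2 to 106) among CFA cells, and A-fibre neurons 86.7 CPM (70.8 to 105) and 83.0 CPM (61.4 to 110). The order of these classes was not resolved by the counts, since the log2 ratio of cLTMR over A-fibre was 0.29 (-0.03 to 0.62) and 0.14 (-0.32 to 0.63). Among classes of at least 10 neurons in both libraries, Trpm8 neurons came next with 44.7 and 32.9 CPM. They were below A-fibre neurons by more than the counting error in both libraries. Nefh-PEP held 32.1 and 62.3 CPM, the latter from 8 neurons. Sstr2- PEP C held 26.9 and 19.6 CPM, PEP2 26.0 and 18.8 CPM, NP1 19.9 and 23.5 CPM, Sstr2+ PEP C 12.5 and 12.3 CPM and NP2 7.59 and 10.5 CPM. NP1 was above NP2 by 1.39 (0.81 to 2.03) on the log2 scale among control and 1.16 (0.12 to 2.41) among CFA cells. A UMI of Gabra2 was found in 66.2% and 68.3% of NP1 neurons. With neurons thinned to 20000 UMIs and shallower ones left out, it was found in 36.1% of 144 control and 34.5% of 58 CFA NP1 neurons.

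Gabra3, the alpha-3 gene, divided the C-fibre classes. In cLTMR it stood at 78.6 CPM (70.0 to 88.0) among control and 123 CPM (108 to 139) among CFA cells, in the Trpm8 class at 78.3 CPM (66.7 to 91.3) and 77.4 CPM (59.9 to 98.5), in Sstr2- PEP C at 76.6 CPM (71.1 to 82.3) and 60.5 CPM (53.2 to 68.5), and in Sstr2+ PEP C at 43.6 CPM (37.2 to 50.8) and 25.5 CPM (19.4 to 33.0). The first 3 of these classes could not be put in order in the control, while Sstr2+ PEP C lay below Sstr2- PEP C by 0.81 (0.57 to 1.07) and 1.24 (0.83 to 1.68) on the log2 scale. A-fibre neurons held 37.9 and 18.6 CPM. In NP1 it was 3.47 and 0.774 CPM, in NP2 0.843 and 1.32 CPM and in PEP2 3.47 and 3.41 CPM, on 1 to 3 UMIs in every case but the 38 UMIs of control NP1, 15 of which came from 1 neuron. Against NP1, cLTMR had 4.50 (4.01 to 5.03) and 7.31 (5.75 to 9.60) more on the log2 scale.

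In PEP C neurons Gabra3 was carried by some of the cells. A UMI was found in 48.6% of control and 38.3% of CFA Sstr2- PEP C neurons and in 23.2% and 12.5% of Sstr2+ PEP C neurons, so the median neuron of both classes stood at 0 CPM in both libraries. The upper quartile of control Sstr2- PEP C neurons was 127 CPM, beside an upper quartile of 120 CPM in control cLTMR, of which 89.6% had a UMI. Among CFA cells the upper quartiles were 77.2 CPM in Sstr2- PEP C and 161 CPM in cLTMR. In Sstr2+ PEP C the upper quartile was 0 CPM in both libraries. When neurons were thinned to 20000 UMIs each, which left 22 control and 19 CFA Sstr2- PEP C neurons out as too shallow, the shares were 44.4% and 36.5% in Sstr2- PEP C against 67.2% and 90.5% in cLTMR. Neurons with much Gabra3 and neurons with none found therefore stood side by side in the PEP C classes. Satellite glial cells (SGCs), which should lack neuronal RNA, had a UMI of it in 0.319% of control cells, from 3 UMIs, and in 0 of 319 CFA cells.

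**Figure D2:**
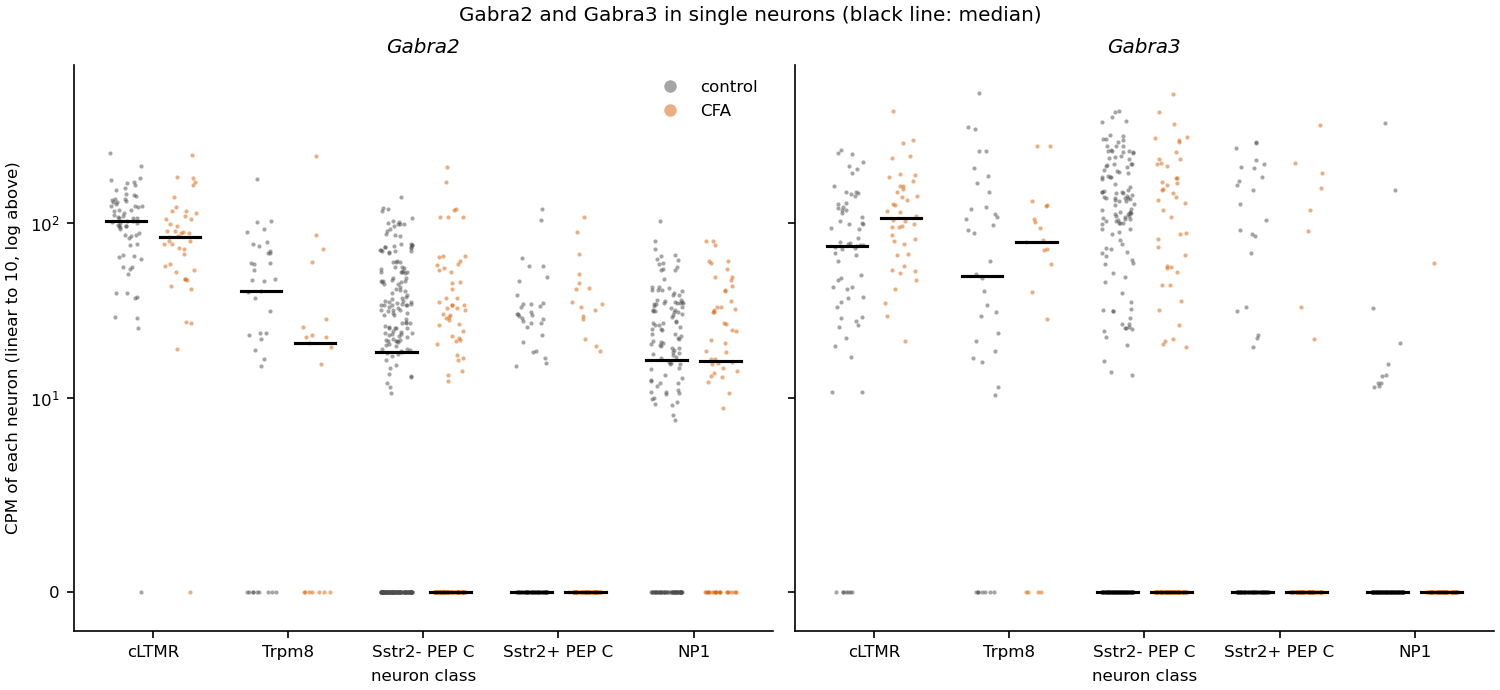
CPM of Gabra2 (left) and Gabra3 (right) in each neuron of 5 classes (x axis), with the y axis linear to 10 CPM and logarithmic above, grey points for the control, orange points for the CFA library and black lines for medians. In cLTMR nearly all neurons lie above 0 for both genes, whereas in both PEP C classes the Gabra3 medians are 0 and the highest neurons lie between 291 and 549.5 CPM.

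Gabra5, the alpha-5 gene known for receptors outside synapses, was highest in the A-fibre and Trpm8 classes. A-fibre neurons held 34.5 CPM (24.8 to 46.8) among control and 23.7 CPM (13.0 to 39.8) among CFA cells, and Trpm8 neurons 16.8 CPM (11.7 to 23.4) and 19.9 CPM (11.6 to 31.9). The difference between these classes exceeded the counting error in the control (log2 ratio 1.04, 0.35 to 1.73) but not in the CFA library (0.25, -0.88 to 1.36). The remaining classes stayed at 4.09 CPM or less in both libraries. A UMI was found in 64.0% and 46.7% of A-fibre and in 42.1% and 52.6% of Trpm8 neurons.

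Gabrb1, the beta-1 gene, followed Gabra2 over the classes. It was highest in cLTMR, at 35.0 CPM (29.3 to 41.4) among control and 41.1 CPM (32.9 to 50.7) among CFA cells, and next in A-fibre neurons, at 24.4 CPM (16.3 to 35.1) and 32.2 CPM (19.4 to 50.3). Trpm8 neurons held 11.05 and 8.21 CPM, Sstr2- PEP C 9.21 and 4.16 CPM, Sstr2+ PEP C 8.23 and 4.404 CPM and NP1 3.10 and 5.16 CPM. NP2 and PEP2 had 1 or no UMI. Gabrb1 was at 6.82 and 13.5 CPM in Nefh-PEP, where 6 of 8 CFA UMIs came from 1 of 8 neurons. Over 17 points (classes by library with at least 10 neurons, which share library and depth) its log2(CPM + 5) had a Pearson r of 0.896 with that of Gabra2 and 0.680 with that of Gabra3. Gabrb2, the beta-2 gene, was scarcely detected, with 10 UMIs in the 702 control and 6 UMIs in the 347 CFA gated neurons, never more than 1 in a cell.

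Gabrg1, the gamma-1 gene, was highest in A-fibre neurons at 37.0 CPM (26.9 to 49.7) among control and 22.0 CPM (11.7 to 37.7) among CFA cells, but came from few of them, 9 of 25 control and 2 of 15 CFA neurons, and 1 neuron held 38.6% and 84.6% of its A-fibre UMIs. Without that neuron the A-fibre levels were 24.1 and 3.88 CPM. Gabrg3, the gamma-3 gene, had its highest level among classes of at least 10 neurons in Sstr2+ PEP C, with 13.8 CPM (10.3 to 18.1) and 11.9 CPM (7.84 to 17.3), and was at 7.04 CPM (5.46 to 8.92) and 10.3 CPM (7.41 to 13.9) in Sstr2- PEP C. Sstr2+ PEP C exceeded Sstr2- PEP C by 0.97 (0.42 to 1.52) on the log2 scale among control and by 0.21 (-0.54 to 0.94) among CFA cells. Gabrg3 was at 8.18 and 16.8 CPM in Nefh-PEP, of which the CFA library had 8 neurons. It was at 6.73 CPM (2.91 to 13.3) in control A-fibre neurons from 8 UMIs, and PEP2 had 1 control and 0 CFA UMIs. Neurons outside every gate held 14.3 and 20.6 CPM, from 16 UMIs in each library. In cLTMR Gabrg3 had 2 UMIs per library and in NP1 2 control and 0 CFA UMIs. Gabrg1 likewise had 1 UMI per library in cLTMR, the class richest in Gabra2 and Gabrb1. Over the same 17 points Gabrg1 had a Pearson r of 0.882 with Gabra5, and Gabrg3 one of -0.09 with Gabra2.

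Each class was also set against all other gated neurons. Of the 5 members with enough UMIs to be compared, Gabra2, Gabra3 and Gabrb1 were at least 2-fold higher in cLTMR in both libraries, as were 5.19% of 11764 genes. Gabra2 was 4.35-fold and 3.76-fold, Gabra3 2.04-fold and 4.28-fold and Gabrb1 5.36-fold and 6.82-fold the level of the other neurons. In A-fibre neurons this held for Gabra2, Gabra5 and Gabrb1, against 4.6% of genes, with Gabra5 at 11.1-fold and 7.18-fold. In the Trpm8 class it held for Gabra5, against 5.34% of genes, and in Sstr2+ and Sstr2- PEP C for Gabrg3, against 3.76% and 3.48%. No member met it in NP1, NP2 or PEP2. The highest class was the same in both libraries for 5 of the 7 members. The exceptions were Gabrb2, with few UMIs, and Gabra3. The highest control class of Gabra3 was Nefh-PEP at 84.6 CPM, with 36.3% of its UMIs from 1 neuron. Only classes of at least 10 neurons were ranked, so Nefh-PEP, with 8 CFA neurons, was ranked in the control library alone. Gabra3 was therefore bound to be an exception.

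The mix of the 7 members set the classes apart. Because UMIs count one end of each transcript, shares between genes were compared without a length correction, as shares of the summed UMIs of these 7 genes only. In cLTMR, Gabra2 made up 47.3% and Gabra3 35.1% of 858 control UMIs, and 35.1% and 47.1% of 552 CFA UMIs, with Gabrb1 at 15.6% and 15.8%. In NP1 Gabra2 took 71.2% of 306 and 73.4% of 124 UMIs. In Sstr2- PEP C Gabra3 led with 61.7% of 1199 and 62.2% of 397 UMIs. In Sstr2+ PEP C Gabrg3 held 17.05% of 305 and 20.8% of 130 UMIs, against 5.67% and 10.6% in Sstr2- PEP C. Among CFA cells the Gabrg3 level of these classes was not resolved, at 11.9 and 10.3 CPM, while the summed members were at 57.3 and 97.2 CPM. A-fibre neurons had the most even mix, with gamma members at 19.0% of 273 and 13.9% of 108 UMIs and Gabra5 at 15.02% and 13.0%. Of the 15 gamma UMIs in CFA A-fibre neurons, 13 were of Gabrg1, and 11 of those came from 1 neuron.

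**Figure D3:**
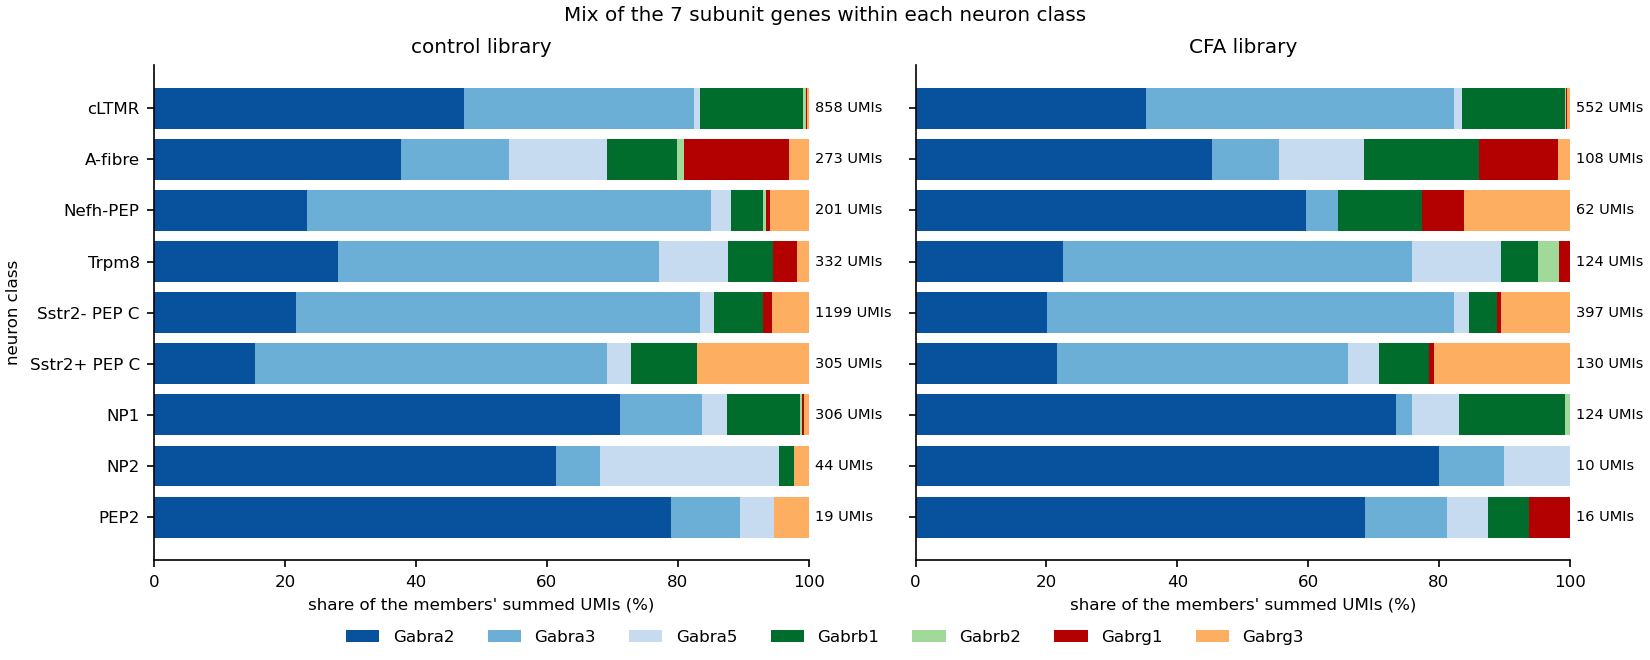
Share of each member in the summed UMIs of the 7 members (x axis, percent) per neuron class (y axis), in the control (left) and the CFA library (right), with the summed UMIs at the end of each bar. Gabra2 fills most of the NP1, NP2 and PEP2 bars, Gabra3 most of the Sstr2- PEP C bars, and Gabrg3 is widest in Sstr2+ PEP C among classes of at least 10 neurons.

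The ratio of Gabra2 to Gabra3 UMIs summarises this divide. It was 5.74 (exact binomial interval 4.05 to 8.33) in control NP1, 2.29 (1.60 to 3.33) and 4.45 (2.29 to 9.50) in A-fibre neurons, 0.571 (0.437 to 0.741) and 0.424 (0.262 to 0.669) in the Trpm8 class, 0.351 (0.304 to 0.405) and 0.324 (0.248 to 0.418) in Sstr2- PEP C and 0.287 (0.203 to 0.399) and 0.483 (0.296 to 0.770) in Sstr2+ PEP C. In cLTMR it was 1.35 (1.16 to 1.57) among control and 0.746 (0.616 to 0.902) among CFA cells, so the alpha gene with more UMIs differed between the libraries there and in no other class of at least 10 neurons.

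At a fixed depth few neurons showed a full set of subunits from these 7 genes. At 20000 UMIs per neuron, 100% of control and 97.6% of CFA cLTMR neurons had a UMI of any alpha member, 44.8% and 45.2% had both an alpha and a beta member, and 1.49% and 0% had an alpha, a beta and a gamma member. Gabra2 and Gabra3 were found together in 56.7% (44.0 to 68.8) of control and 78.6% (63.2 to 89.7) of CFA cLTMR neurons. In Sstr2- PEP C they were found together in 22.0% and 12.5%, and Gabra3 without Gabra2 in 22.4% and 24.0%. The highest share with alpha, beta and gamma members together was 8.70% (1.07 to 28.0), 2 of 23 control A-fibre neurons. With all UMIs it was 32% (14.9 to 53.5), 8 of 25, in control A-fibre neurons and 13.3% in CFA ones, and in Nefh-PEP 4 of 21 control and 2 of 8 CFA neurons. At the fixed depth a share is a lower limit for weakly expressed genes.

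Between the libraries, the level of these genes over all gated neurons was nearly the same. Summed over the members, it was 95.4 CPM (92.3 to 98.6) among control and 96.8 CPM (92.0 to 102) among CFA cells, a log2 ratio of CFA over control of 0.02 (-0.07 to 0.11). Gabra2 stood at 32.8 and 33.4 CPM (log2 ratio 0.03, -0.12 to 0.18), Gabra3 at 42.6 and 41.4 CPM (-0.04, -0.18 to 0.09), Gabra5 at 4.13 and 4.07 CPM (-0.02, -0.46 to 0.41), Gabrb1 at 9.47 and 10.7 CPM (0.18, -0.09 to 0.45), Gabrg1 at 2.02 and 1.53 CPM (-0.41, -1.13 to 0.27) and Gabrg3 at 4.10 and 5.28 CPM (0.36, -0.04 to 0.76). None of these 6 members, the ones with at least 50 UMIs, passed 0.5 on the log2 scale. Of 14371 genes, 6.13% were that much higher and 6.09% that much lower in the CFA library. With 12.2% past the limit in either direction, the result for 6 genes does not set the members apart from genes at large. The classes were not equally frequent, with cLTMR at 9.54% of control and 12.1% of CFA gated neurons and NP1 at 21.9% and 17.3%. In 1 alternative, each class had the same weight in both libraries, its share of neurons averaged over the libraries. The summed level was then 108 CPM among control and 96.0 CPM among CFA cells, a log2 ratio of -0.17. Gabrg1 then passed the limit at -0.67. These weights count neurons, whereas the levels above weight each class by its UMIs. How much of the shift came from the class frequencies was not tested.

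Within classes the libraries differed more, and in opposite directions. In cLTMR Gabra3 was higher in the CFA library by 0.64 (0.40 to 0.89) on the log2 scale, 1.56-fold, with a UMI in 42 of 42 CFA against 60 of 67 control neurons and medians of 107 and 74.0 CPM per neuron, while Gabra2 differed by -0.21 (-0.46 to 0.04) and Gabrb1 by 0.23 (-0.17 to 0.63). The Gabra3 value was 0.63 without the neuron with the most UMIs in each library. Gabra3 was the 1 of 3 tested members past 0.5 there, as were 12.7% of all genes in either direction. The 5 satellite glial markers in cLTMR summed to 355 and 271 CPM, with 0 of them at 0, and their part in the result was not tested.

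In Sstr2+ PEP C Gabra3 was lower in the CFA library by 0.77 on the log2 scale (log2 ratio -0.77, -1.23 to -0.33), 1 of 3 tested members past the limit against 14.6% of genes, while Gabra2 (-0.02) and Gabrg3 (-0.22) had intervals that included 0. Only 8 of 64 CFA neurons carried it, and 1 of them held 31.0% of the UMIs. With gate minimums doubled, the value was -2.09. Satellite glial markers summed to 463 and 333 CPM in this class, with 0 of them at 0, and their part in the result was not tested. In Sstr2- PEP C, Gabrb1 was lower, at 4.16 against 9.21 CPM (-1.15, -1.99 to -0.39), and Gabrg3 higher at 0.55 (-0.04 to 1.12), which makes 2 of 4 members past the limit against 12.4% of genes. Without the neuron with the most UMIs in each library, Gabrg3 fell under the limit at 0.33, while Gabrb1 was at -1.21. Gabra2 (-0.46, -0.84 to -0.09) and Gabra3 (-0.34, -0.55 to -0.13) were below the limit. The Gabra3 value was -0.05 once neurons were thinned to 20000 UMIs, which left 22 control and 19 CFA neurons out as too shallow. Summed satellite glial markers in these neurons were 418 CPM among control and 351 CPM among CFA cells, and their part in the result was not tested.

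In A-fibre neurons Gabra3 (-1.02, -2.12 to -0.05), Gabra5 (-0.54, -1.53 to 0.36) and Gabrg1 (-0.75, -1.77 to 0.17) were lower in the CFA library by more than 0.5, 3 of 4 tested members against 22.9% of genes, from 25 control and 15 CFA neurons. Of the 11 CFA UMIs of Gabra3 in these neurons 8 came from 1 cell. The satellite glial markers summed to 256 CPM with 2 of 5 at 0 in control and to 469 CPM with 0 at 0 in CFA A-fibre neurons, and their part in the result was not tested. In NP1 Gabrb1 was higher by 0.73 (-0.14 to 1.57), 1 of 2 members against 10.7% of genes. Its value was 0.41, under the limit, without the neuron with the most UMIs in each library. In the Trpm8 class 0 of 3 members passed the limit, against 15.5% of genes. Among members with at least 50 UMIs and classes of at least 10 neurons, the following differences exceeded the counting error. Gabra3 was higher in cLTMR and lower in A-fibre neurons and both PEP C classes. In Sstr2- PEP C Gabra2 and Gabrb1 were also lower, but Gabra2 and Gabra3 there did not pass 0.5. How many of all genes exceeded the counting error was not counted, so no share can be set beside this list. The intervals treat UMIs as independent and do not cover their clustering in single neurons. In each class listed for Gabra3, the intervals of the share of neurons with a UMI overlapped between the libraries. In Sstr2+ PEP C these were 15.1% to 32.9% in the control and 5.55% to 23.2% in the CFA library.

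**Figure D4:**
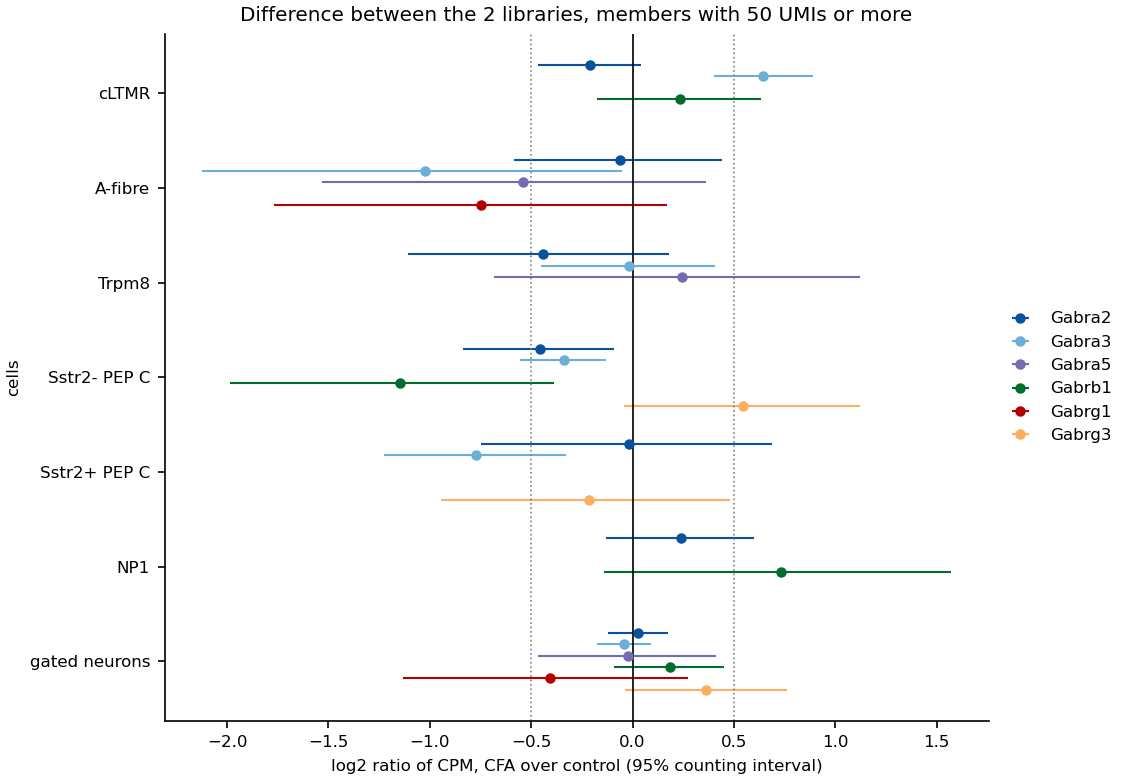
Log2 ratio of CPM, CFA over control (x axis), of members with at least 50 UMIs in 6 neuron classes and all gated neurons (y axis), with 95% counting intervals and dotted lines at 0.5 in each direction. Gabra3 lies to the right of 0 in cLTMR and to the left in A-fibre and both PEP C classes, and over all gated neurons the points of Gabra2 and Gabra3 lie near 0.

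In SGCs, which wrap the neuron bodies and can take up GABA, the summed members were near the level of free neuronal RNA. The 941 control SGCs held 8 UMIs of the 7 members in all and the 319 CFA SGCs held 1, which is 3.90% (1.68 to 7.69) and 1.505% (0.038 to 8.40) of the level in gated neurons. For 8 genes of neurons, such as Snap25 and Scn10a, the same quotient had a median of 4.80% (3.51 to 5.57) and 2.32% (1.79 to 2.74), with the range over the genes in brackets. Schwann cells, fibroblasts, endothelial cells and macrophages together held 34 and 6 member UMIs, 8.12% (5.61 to 11.4) and 2.92% (1.07 to 6.38) of the neuron level, where the neuron genes had medians of 5.53% and 2.57%. No summed expression of the members in SGCs was detectable above this background. Taken alone, Gabra5 had 2 control and 1 CFA UMIs in SGCs, or 22.5% (2.71 to 82.8) and 35.8% (0.893 to 207) of its neuron level, intervals that include the quotients of the neuron genes. The other non-neuronal cells named above had 0 UMIs of Gabra5 in 3072 control and 1752 CFA cells, with upper limits of 20.6% and 44.0%. These counts were too few to tell whether Gabra5 in SGCs exceeded free neuronal RNA.

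The wider GABA pathway was read over 43 genes, of which 29 had at least 50 UMIs in gated neurons. Between the libraries 1 was higher by at least 0.5 on the log2 scale, 2 were lower and 26 lay within, with a median log2 ratio of -0.05. Among all 14371 genes with at least 50 UMIs, 12.2% passed 0.5 in either direction. The pathway genes thus passed the limit about as often as genes at large. The alpha-4 gene Gabra4 was the higher one (0.82, 0.09 to 1.54, from 40 control and 30 CFA UMIs), and like Gabra5 it was highest in A-fibre neurons, at 21.04 and 39.0 CPM. Kctd12, an auxiliary subunit of GABA-B receptors, was lower (-0.92, -1.84 to -0.10) but stood at 74.9 and 48.1 CPM in SGCs against 1.81 and 0.954 CPM in neurons, and the part of glial RNA was not tested. Plcl1, which aids the trafficking of GABA-A receptors, was lower by 0.59 on the log2 scale (-0.59, -0.81 to -0.36), from 20.1 to 13.4 CPM. It was highest in NP1, at 46.6 and 36.6 CPM, a class that made up 21.9% of control and 17.3% of CFA gated neurons. The part of the class frequencies in the Plcl1 difference was not tested. Among the other subunits Gabrd, the delta gene of extrasynaptic receptors, was highest in the Trpm8 class at 22.6 and 23.5 CPM.

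The most abundant of these genes in neurons were the trafficking genes Gabarapl1 (949 and 894 CPM), Gabarapl2 (772 and 746 CPM) and Gabarap (654 and 709 CPM). The GABA-B receptor genes Gabbr1 (329 and 342 CPM) and Gabbr2 (159 and 166 CPM) were each above the summed level of the 7 members. In cLTMR Gabbr1 was at 383 CPM and in NP1 at 382 CPM among control cells. Of the chloride transporters, the importer gene Slc12a2 was at 89.1 and 101.3 CPM in gated neurons and 666 and 1097 CPM in SGCs, whereas the exporter gene Slc12a5 had 13 and 2 UMIs in gated neurons. The GABA transporter gene Slc6a11 was at 50.2 and 64.1 CPM in SGCs and below 1 CPM in neurons, and Dbi, whose product binds the benzodiazepine site, was at 10348 and 9138 CPM in SGCs against 138 and 126 CPM in neurons.

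Over the 17 points of class and library, the genes whose pattern was most like that of each member with at least 100 UMIs were drawn from 9346 candidates. These were Lrrn1 (Pearson r 0.946), Rprm and Enpp2 for Gabra2, Tppp (0.935), Cntfr and Mtmr11 for Gabra3, Lgi3 (0.954), Sparcl1 and Vamp1 for Gabra5, Cnnm4 (0.943), Stac2 and D630045J12Rik for Gabrb1, and Kit (0.976), Fam20a and Cyp1b1 for Gabrg3. The points share libraries and depth, and the correlations are descriptions.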

How the data were processed

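Single cells of right TGs were profiled in 2 BD Rhapsody whole transcriptome libraries, 1 per group. The authors deposited whole-number UMI counts per gene and cell, not normalized, with gene symbols and cell barcodes. The submitters' processing notes name fastp and GRCm38, while the aligner, the counter and the annotation are not given in the sources used here. Depth was 48233077 UMIs over 6695 kept control cells and 21658155 UMIs over 3661 kept CFA cells.

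Within each class of each library, UMIs of a gene were added up and scaled to the class total (CPM). Intervals at 95% are conditional exact binomial for ratios, Clopper-Pearson for shares and exact Poisson for CPM. UMIs of 1 library are not independent animals, so these cover counting error only, and no p-value was computed. Ratios between libraries were read where a gene had at least 50 UMIs, with 0.5 on the log2 scale as the limit.

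Neurons had at least 10 UMIs of Tubb3 and 5 of Snap25. Class minimums were 5 of Mrgprd (NP1), 5 of Mrgpra3 (NP2), 20 of Sst or 10 of Nppb (PEP2), 5 of Trpm8, and 5 of Cd34, C1ql4 and Wfdc2 with 2 of Tafa4 (cLTMR). The rest were split at 20 of Nefh and 100 of Calca, with 30 of Tac1 for PEP C and 3 of Sstr2. Neurons in more than 1 of the first 5 classes (0 control, 1 CFA) or in no class (55 and 43) were set aside. SGCs had at least 5 UMIs of Fabp7 and fewer than 3 of Tubb3, with a further limit on a gene that is not reported here. No doublet caller was run.

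Named genes were the 7 members, the 3 highest pathway genes and those past the limit, and the 3 genes most like each member with at least 100 UMIs. Gabrd, Gabbr1, Gabbr2, Slc12a2, Slc12a5, Slc6a11 and Dbi were named after their values were seen. The members, lists and gates were chosen with earlier results of these data known. Some other GABA-A subunit genes are not analysed here. The ratios and intervals were tested on simulated class totals, drawn from the same Poisson model that the intervals assume. Clustering of the UMIs of a gene in single neurons was not simulated, so this test does not cover it. Software versions were numpy 2.4.6, pandas 2.3.3 and scipy 1.17.1 under Python 3.11.15. Gene positions and coding windows come from GENCODE M21 and promoters from RefSeq. Alternatives were other cell filters, other gate minimums, the mean of single-cell CPM, thinning, totals without mitochondrial genes, and neurons with 10 or more UMIs of Fabp7 left out. The same class weights in both libraries, added ungated neurons and neurons with the most UMIs left out were chosen after seeing the data.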

Additional observations from a re-analysis of the deposited data

Results flagged for a closer look

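Gabra3 differed between the libraries in opposite directions in different neuron classes, with a log2 ratio of CFA over control of 0.64 in cLTMR, -1.02 in A-fibre neurons, -0.77 in Sstr2+ PEP C and -0.34 in Sstr2- PEP C. The counting interval of each excluded 0, but it does not cover clustering of UMIs in single neurons. The difference between the classes was not tested, since each group is 1 library. The share of all genes with such intervals was not counted. The neurons in no class were compared only in the alternative that added them. In these neurons the 7 members summed to 136 CPM in the control and 169 CPM in the CFA library, from 152 and 131 UMIs.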

How the results depend on the processing

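Of 461 values of 48 results under 11 alternatives, 422 stayed within the counting interval or within 1.5 times of the count reported, 39 moved and 0 changed sign where the ratio had passed the limit. Among the 48 results, only Gabra3 in cLTMR and in Sstr2+ PEP C and Gabrb1 in Sstr2- PEP C had such ratios. The differences past the limit in A-fibre neurons and NP1 and that of Gabrg3 in Sstr2- PEP C were not among these results. The summed level of the members in control gated neurons, 95.4 CPM, was 91.8 CPM with gate minimums doubled and 102 CPM as the mean of single neurons. It was 103 CPM with neurons thinned to 20000 UMIs and 108 CPM with the same class weights in both libraries. The CFA level, 96.8 CPM, was 102 CPM after thinning. The log2 ratio of the sums was -0.17 with the same class weights in both libraries and between -0.06 and 0.05 otherwise. The count of members past 0.5, 0 in the values reported, was 1 with gate minimums halved, with the mean of single neurons and after thinning. It was also 1 with the same class weights, with ungated neurons added and without the neuron with the most UMIs. That member was Gabrg3 after thinning (0.69) and Gabrg1 in the other 5 (-0.54 to -1.003). The members with the same highest class in both libraries were 3 of 7 with gate minimums halved. The Gabra3 ratio in cLTMR ranged from 0.59 to 0.71 and that in Sstr2- PEP C from -0.52 to -0.05. The causes were not tested. No paired analysis was possible because each group has 1 library, and no replicate could be left out. Depth limited Gabrb2 and Gabrg1 most, with 16 and 99 UMIs in all gated neurons.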

Other observations

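Nefh-PEP neurons numbered 21 among control and 8 among CFA cells. They were ranked among the classes in the control library only, since 8 was too few for the order. Their Gabra3 level was 84.6 CPM in the control, where 45 of 124 UMIs came from 1 neuron, and 5.05 CPM from 3 UMIs in the CFA library. Their Gabra2 level was 32.1 and 62.3 CPM and their Gabrg3 level 8.18 and 16.8 CPM. With gate minimums halved the class held 76 and 39 neurons.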
